A study of Mus musculus with 16 samples.

Results

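The genes described here encode the protein parts of the spliceosome and the hnRNP proteins that coat nuclear pre-mRNA. They were taken from the array by name: snRNP proteins (Snrp), hnRNP proteins (Hnrnp or Hnrp), the subunits of splicing factor 3 (Sf3a and Sf3b), SR proteins (Srsf or Sfrs), Sm-like proteins (Lsm) and pre-mRNA processing factors (Prpf). Of the 22328 genes with a probe, 77 had such a name: 12 snRNP, 12 Lsm, 8 Sf3, 13 Prpf, 12 SR protein and 20 hnRNP genes. They were measured by 131 probes, and each gene is given by its brightest probe. For 3 of them the array used an older name than RefSeq, namely Hnrpdl for Hnrnpdl, Hnrpll for Hnrnpll and Sfrs18 for Pnisr.

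The spliceosome removes introns from pre-mRNA. Its snRNPs are small nuclear RNAs bound by a ring of Sm proteins (the U6 RNA by a ring of Lsm proteins) and by proteins particular to each snRNP. SR proteins mostly favour, and hnRNP proteins often oppose, the use of nearby splice sites, and together they set which exons a cell includes. Activated T cells splice receptors and signalling proteins differently from resting ones, and the splicing of Ptprc (CD45), which depends on Hnrnpll, is a textbook case. Many SR and hnRNP genes also limit their own mRNA by splicing in exons that mark it for decay.

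The study compared lymph node T cells of OT-1 mice, whose T cells carry a transgenic receptor for the ovalbumin peptide SIINFEKL. The WT group (4 replicates) was OT-1het and Rag-/-, and the Lck-/- group (4 replicates) was OT-1het, Rag-/- and Lck-/-. Lck is the kinase at the head of T cell receptor signalling. All cells received 100 nM peptide for 24 h and 100 µg/ml cycloheximide, which holds ribosomes on mRNA, for 10 min, and no unstimulated cells were compared. Lysates were separated on sucrose gradients of 10 to 50%, and fractions 1 to 5 (sub-polysomal, with few or no ribosomes) and 6 to 10 (polysomal, with several ribosomes) were pooled. Each extract was measured on 2 arrays that set polysomal against sub-polysomal RNA in 2 colours with the dyes exchanged, 16 arrays in all.

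Per array, 14619 to 50776 probes passed the scanner's test against background for polysomal RNA and 12531 to 30976 for sub-polysomal RNA. The number of extracts limits the precision. All 9 T cell markers were above background in both genotypes, as were 1 of 6 B cell markers (Cd79b), 3 of 7 monocyte and macrophage markers in WT and 2 in Lck-/-, 1 of 5 dendritic cell markers (Siglech), and none of the 4 NK cell or 5 stromal and endothelial markers. The mean log2 level over the B cell list was 6.91 to 7.08 in WT and 6.96 to 7.12 in Lck-/- extracts. Over the monocyte and macrophage list it was 7.60 to 7.89 and 7.53 to 7.73, over the dendritic cell list 8.23 to 8.34 and 8.29 to 8.38, and Cd68 was the sole marker of these lists called in the mean level (-0.78). The part of other cells in the results was not tested. The log2 level of Lck itself, averaged over both fractions, was 15.03 ± 0.21 (SD, n = 4) in WT and 14.18 ± 0.13 (n = 4) in Lck-/- extracts, a difference of -0.85 (SE 0.14) with adjusted p = 0.00314 in limma; whether its probe lies in the deleted stretch is not given in the sources used here. In 2 extracts, WT replicates 1 and 2, the 2 arrays deviated in opposite directions. Each gene's mean ratio over the arrays of the same genotype and dye was first subtracted. The remaining deviations, not the ratios themselves, correlated at -0.83 and -0.81 over genes, against 0.46 to 0.84 in the other extracts. They correlated at 0.87 and 0.94 when the exchanged arrays were crossed between the pair. The counts of calls over all members in each comparison below are therefore also given with these arrays crossed and with both extracts left out. Values per extract, and statements on their overlap, follow the labels. Whether the labels of these arrays were exchanged was not tested. If they were, the values of WT replicates 1 and 2 each mix 2 extracts.

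Promoter windows from RefSeq (build GRCm38.p6, 250 bases before and 50 after an annotated start) were found for 65 of the 77 genes, in 87 windows. The 5 printed stretches run 5′ to 3′ from 100 bases before to 15 after the start, and are shown because these genes, of 4 groups, were called between the genotypes below. Capitals mark matches on either strand to 5 promoter motifs: the ETS core, GC box, E-box and TATA box, whose letters follow the sequences, and the NRF1 motif, given by name. The stretches of Snrpd3 and Hnrnpm hold none of them. The arrays measured no binding or chromatin.
Snrpd3, chr10:75517942-75518056, plus strand: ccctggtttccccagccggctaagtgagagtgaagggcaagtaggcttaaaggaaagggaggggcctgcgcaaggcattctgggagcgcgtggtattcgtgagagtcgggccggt
Snrpa1, chr7:66060236-66060350, plus strand: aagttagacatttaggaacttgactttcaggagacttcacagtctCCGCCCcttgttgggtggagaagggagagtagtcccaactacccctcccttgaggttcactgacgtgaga
Sf3b3, chr8:110846789-110846903, minus strand: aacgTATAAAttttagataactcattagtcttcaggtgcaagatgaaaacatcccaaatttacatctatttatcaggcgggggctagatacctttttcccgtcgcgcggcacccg
Srsf3, chr17:29032560-29032674, plus strand: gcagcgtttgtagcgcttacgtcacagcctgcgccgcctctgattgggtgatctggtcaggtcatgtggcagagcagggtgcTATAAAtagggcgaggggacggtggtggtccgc
Hnrnpm, chr17:33685444-33685558, minus strand: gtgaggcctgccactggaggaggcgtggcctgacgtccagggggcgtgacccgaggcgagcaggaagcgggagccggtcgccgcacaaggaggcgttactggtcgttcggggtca
Over whole windows, the ETS core, CCGGAAG, was in 25 of the 87 windows (28.7%), against 8.86% of the 32851 windows in the table. It was in 6 of 7 Sf3 windows (85.7%) and 1 of 11 Lsm windows (9.09%). The NRF1 motif was in 20.7% of the members' windows against 4.6% of all, and the GC box, whose letters are GGGCGG, in 66.7% against 35.7%. The E-box, CACGTG, was in 12.6% against 7.15%. The TATA box, with the letters TATAAA, was in a smaller share of the members' windows, 8.05% against 13.6%, and it stands in the printed stretches of Srsf3 and Sf3b3. Windows of the same gene can overlap, and a match is no evidence that a factor binds.

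The ratio is the log2 of polysomal over sub-polysomal signal, and it was centred on each array so that 0 stands for the typical mRNA, not for equal amounts. Of the 77 genes, 74 were bright enough to test for the ratio. Srsf12 and Snrpn, the Sm protein of neurons, were too dim for any test, and Sf3b1 was tested for its levels alone. In WT cells 35 of the 74 had a ratio above 0 (33.4% of all genes did) and 20 a ratio below 0 (28.8% of all genes) at a limma adjusted p below 0.05. In Lck-/- cells the counts were 30 (26.9% of all genes) and 18 (29.2% of all genes). With WT replicates 1 and 2 crossed, 27 were above and 12 below 0 in WT (24.7% and 21.5% of all genes) and 23 and 13 in Lck-/- (17.7% and 18.2%). Without these extracts, the counts were 23 and 12 in WT (22.4% and 21.5% of all genes) and 28 and 15 in Lck-/- (23.9% and 25.9%). On slide 1 alone, 34 were above and 11 below 0 in WT (27.1% and 23% of all genes), and on slide 2 alone 21 and 17 (24.5% and 22.6%). In Lck-/- cells on slide 1 alone, 21 were above and 9 below 0 (15.2% and 18.8% of all genes).

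The hnRNP mRNAs lay toward the polysomes and the Lsm mRNAs away from them. Of 20 hnRNP genes, 13 were above 0 and 1 below in WT, and 13 and 1 in Lck-/-. Of 12 Lsm genes, 2 were above and 7 below 0 in WT, and 1 and 7 in Lck-/-. Over all genes, 33.4% were above and 28.8% below 0 in WT, and 26.9% and 29.2% in Lck-/-. The median WT ratio was 0.35 for hnRNP and -0.34 for Lsm genes, 0.37 for snRNP, 0.26 for Prpf, 0.23 for SR protein and 0.21 for Sf3 genes, beside 0.04 over all genes. These orders hold relative to the typical mRNA: without centring, the median WT ratio was 1.01 over the Lsm genes and 1.73 over the hnRNP genes, beside 1.34 over all genes.

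**Figure D1:**
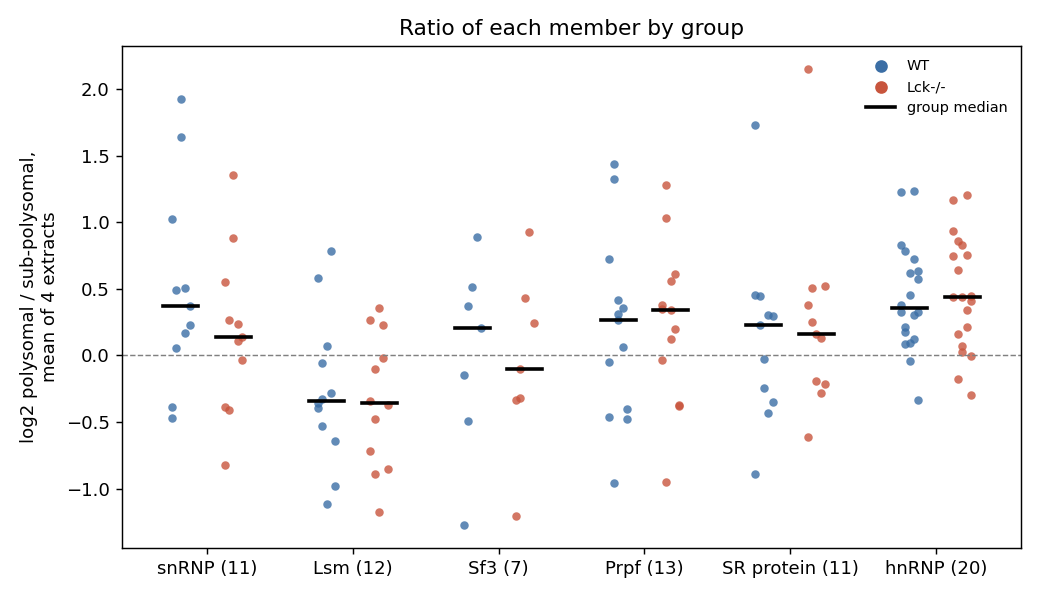
Mean log2 ratio of polysomal over sub-polysomal RNA (vertical axis) of each of the 74 tested genes in WT (blue) and Lck-/- (red) extracts, by group, with the number of genes in brackets and a bar at the group median. The snRNP medians are 0.37 in WT and 0.14 in Lck-/-, while those of hnRNP genes are 0.35 and 0.44.

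The 5 genes with the highest WT ratios were Snrpb (1.92 ± 0.34, SD, n = 4), Srsf3 (1.73 ± 0.21), Snrpd3 (1.64 ± 0.27), Prpf19 (1.43 ± 0.17) and Prpf6 (1.32 ± 0.30). Srsf3 is an SR protein, Snrpb and Snrpd3 encode Sm ring subunits, Prpf19 is a ubiquitin ligase needed to activate the spliceosome, and Prpf6 bridges the snRNPs of the tri-snRNP. The 5 lowest were Sf3b4 (-1.27 ± 0.12, SD, n = 4), Lsm3 (-1.12 ± 0.65), Lsm5 (-0.98 ± 0.40), Prpf39 (-0.96 ± 0.25) and Pnisr (-0.89 ± 0.30). In Lck-/- cells the same 10 genes kept their side of 0, with 2.15 ± 0.30 (SD, n = 4) for Srsf3 at one end and Sf3b4 at the other. The SDs of neighbours in this order overlap. Relative to equal signal, without centring, the 5 lowest WT ratios were above 0, from 0.04 for Prpf39 to 0.49 for Lsm5. Sf3b4 has a second, dimmer probe with a WT ratio of -0.08, so its low ratio rests on the brightest probe. The same holds for Srsf3, whose 3 probes ranged from 0.19 to 1.73 in WT, and for Prpf39, whose second probe was at -0.40. The second probes of Lsm5 and Pnisr were as low as the first, at -1.05 and -0.91.

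The genotypes were compared in 4 log2 quantities, with WT subtracted from Lck-/-: the ratio, the level in each of the fractions, and the mean of these levels. For the ratio, 0 of 74 members were higher (2.81% of all genes were) and 1 was lower (1.03% of all genes) at a limma adjusted p below 0.05. At an unadjusted p below 0.05, 5 were higher and 12 lower. For the mean level, 10 of 75 were higher (10.2% of all genes) and 1 lower (11.2% of all genes). For the polysomal level, 5 of 75 were higher (5.98% of all genes) and 1 lower (9.21% of all genes). For the sub-polysomal level, 12 of 75 were higher (9.47% of all genes) and 1 lower (10.8% of all genes). In all, 18 genes were called at least once, 2 of them in both fractions (Hnrnpm is described below), 11 in the sub-polysomal level and not the polysomal, and 4 the other way round. The matching shares of all genes were not computed for these combined counts or for the unadjusted counts. A call in one fraction and not in the other does not show that the fractions differ, which the ratio tests. The extracts of the genotypes did not overlap, with Lck-/- higher, for 3 members in the ratio (5.81% of all genes), 16 in the mean level (13.6%), 8 in the polysomal level (10.1%) and 18 in the sub-polysomal level (13.8%). With Lck-/- lower, the counts were 6 (8.81%), 3 (12.8%), 3 (12.9%) and 3 (12.3%). These counts without overlap take WT replicates 1 and 2 as labelled and were not repeated with their arrays crossed.

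The calls, those of all genes included, depended on a few arrays. With WT replicates 1 and 2 crossed, limma called 0 members in the ratio (unadjusted, 2 higher and 5 lower), where 0.496% of all genes were higher. In the mean level 7 were higher and 1 lower (8.59% and 10.1% of all genes), in the polysomal level 1, Lsm14a, was higher (2.07%), and in the sub-polysomal level 3 were higher and 1 lower (4.74% and 6.72%). Without these extracts, 0 were called in the ratio (unadjusted, 2 higher and 6 lower), where 1.02% of all genes were higher, and 0 in the polysomal level (unadjusted, 10 higher and 6 lower), where 0.428% were higher and 1.88% lower. In the mean level 3 were then higher and 1 lower (3.43% and 5.68% of all genes), and in the sub-polysomal level 7 and 1 (4.43% and 6.92%). On slide 1 alone, with 4 arrays a genotype, 18 were higher and 1 lower in the sub-polysomal level (12.5% and 12.7% of all genes), and 0 were called in the polysomal level (unadjusted, 5 higher and 2 lower), where 0.301% of all genes were higher and 1.14% lower. On slide 2 alone, 0 were called in the sub-polysomal level (unadjusted, 7 higher and 1 lower), where 0.807% of all genes were higher and 2.02% lower, and 11 were higher and 4 lower in the polysomal level (10.4% and 10.1%). None of the members' sub-polysomal calls below was therefore made on slide 2 alone, where Snrpd1 was not tested, and none of their polysomal calls on slide 1 alone. The calls of other genes below were not followed on single slides. With a gene's probes averaged, the sub-polysomal calls of Lsm2 and Sf3b3 (limma adjusted p = 0.225 and 0.0542), the mean-level call of Sf3b3 and the polysomal call of Srsf3 (0.861) were lost. In the ratio 0 were called on slide 1 (unadjusted, 3 higher and 12 lower), where 2.68% of all genes were higher and 0.109% lower. On slide 2 the ratio gave 0 calls as well (unadjusted, 3 higher and 3 lower), where 0.718% of all genes were higher and 0.0973% lower. In the mean level 7 were higher and 0 lower on slide 1 (5.72% and 7.9% of all genes) and 3 and 1 on slide 2 (8.06% and 8.99%). Amounts of RNA per cell and numbers of cells cannot be told apart in such samples, and a level is relative to the other genes of the array.

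**Figure D2:**
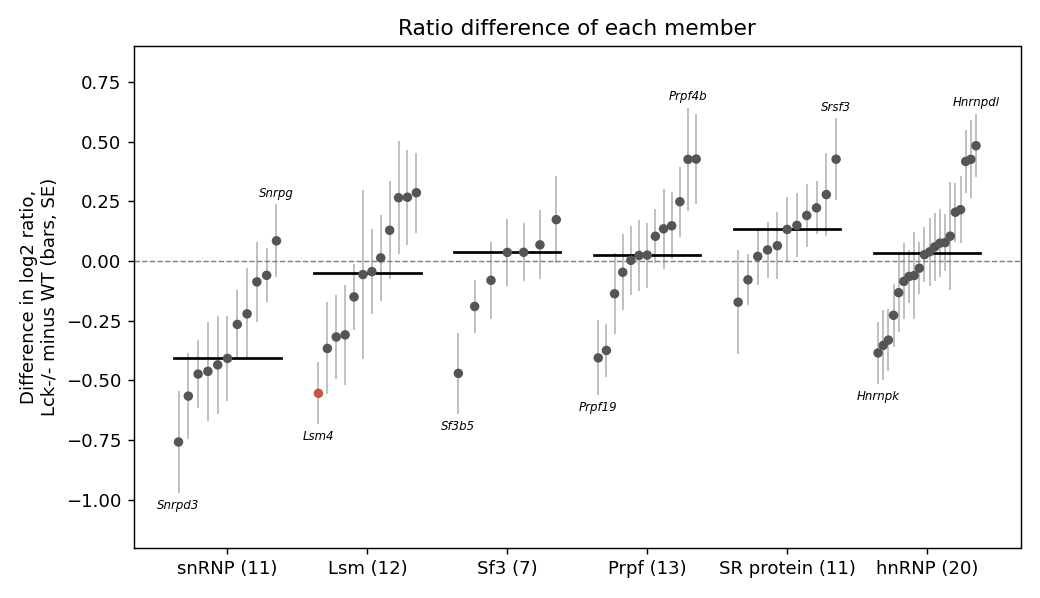
Difference in log2 ratio, Lck-/- minus WT (vertical axis), of each tested gene with its SE (grey bars), sorted within groups, with a black bar at the group median. Lsm4 (red) is the gene called by limma, and 10 of 11 snRNP genes lie below 0.

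The snRNP genes stood lowest in the ratio difference, with a median of -0.41 beside -0.04 over all genes, and 10 of the 11 tested were below 0 (55.7% of all genes were). None was called in limma (unadjusted, 5 were lower and 0 higher at p below 0.05). The median over these genes was 0.34, 0.37, 0.63 and 0.20 in the WT extracts and 0.16, 0.15, 0.10 and 0.10 in the Lck-/- extracts, so that every Lck-/- extract lay below every WT extract. In the sub-polysomal level, 4 of 11 were higher and 0 lower (9.47% and 10.8% of all genes), and the median difference was 0.43, beside 0.05 over all genes. In the polysomal level none was called (5.98% of all genes were higher and 9.21% lower), with a median difference of 0.11 beside 0.00 over all genes. The median ratio difference was -0.31 on slide 1 alone and -0.14 on slide 2 alone, beside -0.10 and 0.02 over all genes. On slide 1 alone the Sf3 and hnRNP medians, given in the last section, were nearly as low. The snRNP median was -0.36 with WT replicates 1 and 2 crossed and -0.42 without them, beside -0.04 and -0.02 over all genes. In the authors' deposited table of ratios, which is not centred, it was -1.68, beside -1.15 over all genes.

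Snrpd3 encodes SmD3, a subunit of the Sm ring that Snrpb, Snrpd1, Snrpd2, Snrpe, Snrpf and Snrpg complete. Its sub-polysomal log2 level was 11.01, 11.94, 11.65 and 11.96 in the 4 WT extracts and 12.51, 12.15, 12.88 and 12.71 in the 4 Lck-/- extracts. Every Lck-/- extract was above every WT extract, and WT replicate 1 was the lowest. It rose by 0.92 (SE 0.23, limma adjusted p = 0.0179). Its polysomal log2 level was 12.53, 13.35, 13.67 and 13.56 in WT and 13.23, 13.67, 13.51 and 13.37 in Lck-/- extracts, with the groups overlapping and adjusted p = 0.665 in limma. The ratio of Snrpd3 was 1.52, 1.41, 2.02 and 1.60 in WT and 0.72, 1.52, 0.63 and 0.65 in Lck-/- extracts. Of the latter, 3 lay close together and Lck-/- replicate 2 reached the WT range. The ratio difference of -0.76 (SE 0.21) did not pass (adjusted p = 0.0814 in limma). The sub-polysomal call was kept with WT replicates 1 and 2 crossed (adjusted p = 0.0145) and not without them (adjusted p = 0.059) in limma.

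Snrpd1 (SmD1) had the same directions. Its sub-polysomal log2 level was 13.38, 13.89, 13.55 and 13.88 in WT and 14.47, 14.11, 14.22 and 14.37 in Lck-/- extracts, without overlap, where WT replicate 1 rests on 1 array because a spot on the other was marked as an outlier. It rose by 0.62 (SE 0.15, limma adjusted p = 0.0184), and its mean level rose by 0.38 (adjusted p = 0.0477 in limma). Its ratio was 1.26, 0.91, 1.02 and 0.91 in WT and 0.31, 0.78, 0.63 and 0.48 in Lck-/- extracts. These groups did not overlap, yet the difference of -0.47 (SE 0.14) did not pass (limma adjusted p = 0.0958). In a fit of each probe by itself, its second probe differed by -0.75 in the ratio and passed (limma adjusted p = 0.0336). The sub-polysomal call was lost with WT replicates 1 and 2 crossed (limma adjusted p = 0.0629) and without them (0.0692), as was the mean-level call (0.0683 and 0.173).

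The other Sm ring genes were not called in any of the 4 comparisons. Snrpb, the gene of SmB, had the highest WT ratio, with 1.63, 1.72, 2.40 and 1.94 in WT and 1.51, 1.54, 1.22 and 1.16 in Lck-/- extracts. All 4 Lck-/- values were lower than all WT values, and the difference was -0.57 (SE 0.18) with adjusted p = 0.116 in limma. The ratio difference was -0.46 (SE 0.21) for Snrpd2, -0.09 (SE 0.17) for Snrpf, -0.06 (SE 0.11) for Snrpe and 0.08 (SE 0.15) for Snrpg, which was the sole snRNP gene above 0. The mean log2 level of Snrpg was 15.57 ± 0.11 (SD, n = 4) in WT and 15.31 ± 0.13 (n = 4) in Lck-/- extracts. Of the 7 ring genes, 6 had a negative ratio difference (55.7% of all genes did) and 5 a positive sub-polysomal difference (54.7% of all genes). Snrpe is among these 5, though its 2 probes ranged from -0.28 to 0.17 in that level. The probe of Snrpf shares a stretch of 20 bases with a probe for a predicted gene, and the probes of Snrpb and Snrpd2 each share such a stretch with 1 probe that has no gene symbol.

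Among the proteins particular to U1 and U2 snRNP, Snrpa (protein A of U1, which binds U1 RNA) and Snrpa1 (protein A′ of U2) were called. The sub-polysomal log2 level of Snrpa was 12.56, 12.69, 12.62 and 12.50 in WT and 12.93, 13.06, 13.23 and 13.41 in Lck-/- extracts. The groups were apart, and the gene rose by 0.57 (SE 0.14, limma adjusted p = 0.0161). Its mean level rose by 0.35 (limma adjusted p = 0.0406), and its polysomal level was 12.20 ± 0.04 (SD, n = 4) and 12.33 ± 0.28 (n = 4), with no call. Snrpa1 was at 12.77, 12.76, 12.61 and 12.36 in WT and 13.25, 12.97, 13.27 and 13.13 in Lck-/- extracts in the sub-polysomal level, again without overlap, and rose by 0.53 (SE 0.14, limma adjusted p = 0.0224). Neither sub-polysomal call was kept with WT replicates 1 and 2 crossed (limma adjusted p = 0.0763 for Snrpa and 0.0611 for Snrpa1), and without them that of Snrpa was lost (0.0657). The mean-level call of Snrpa was lost in both cases (0.0578 and 0.153). Snrpc (protein C of U1) differed by 0.43 (SE 0.15) in the sub-polysomal level (adjusted p = 0.062 in limma). Snrpb2 (protein B″ of U2) had a ratio of 0.50 ± 0.22 (SD, n = 4) in WT and 0.24 ± 0.16 (n = 4) in Lck-/- extracts.

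**Figure D3:**
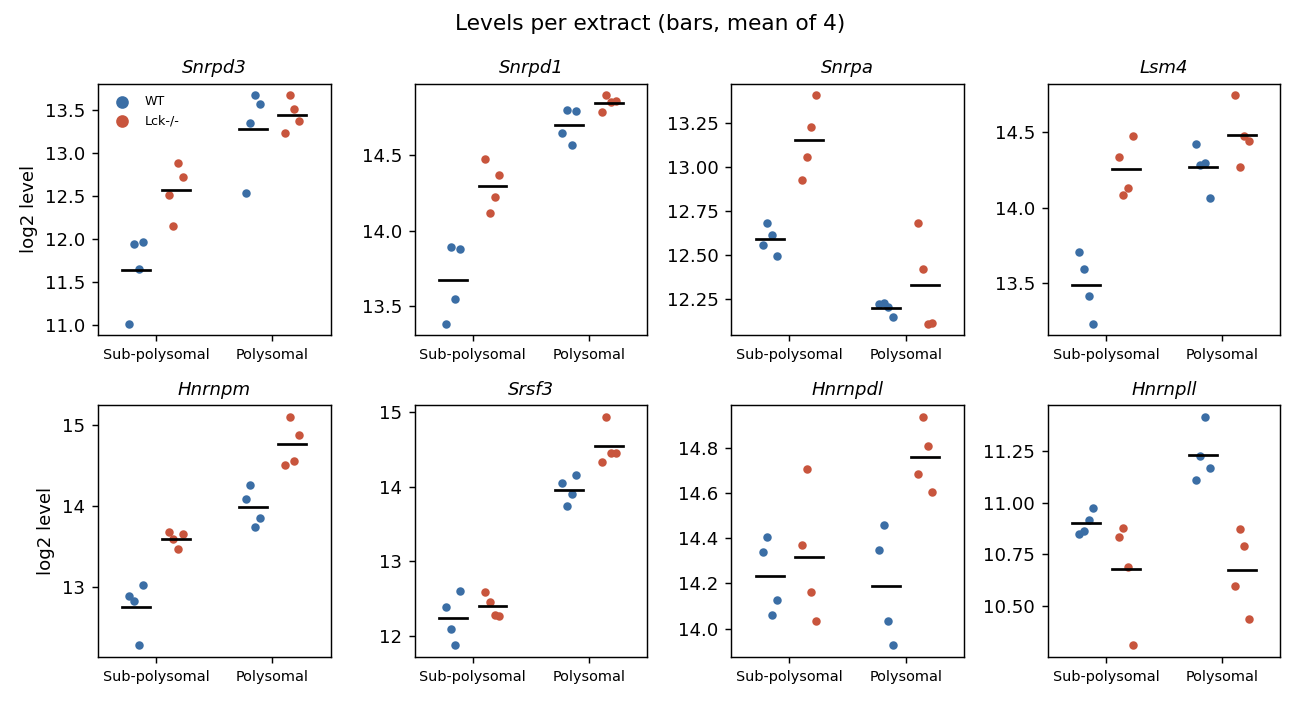
Log2 level of 8 genes in the sub-polysomal and polysomal fractions of the 4 WT (blue) and 4 Lck-/- (red) extracts, with a bar at each mean. For Snrpd3, Snrpd1, Snrpa and Lsm4 the genotypes are apart in the sub-polysomal fraction, for Hnrnpm in both, and for Srsf3, Hnrnpdl and Hnrnpll in the polysomal fraction.

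The Lsm genes include Lsm1 to Lsm7, whose proteins form the ring that binds mRNA under decay in the cytoplasm. Lsm2 to Lsm7 are also part of the ring that binds U6 RNA in the nucleus. Lsm10 and Lsm11 belong to the U7 snRNP of histone mRNA processing. Lsm4 was the one member called in the ratio. Its brightest probe lies at chr8:73202536-73202594 (mm9, per the files). The ratio was 0.72, 0.69, 0.88 and 0.83 in WT and 0.41, 0.18, 0.34 and -0.03 in Lck-/- extracts, so that all 4 WT values were above all 4 Lck-/- values. It fell by 0.55 (SE 0.13, limma adjusted p = 0.0418). The sub-polysomal log2 level was 13.70, 13.59, 13.41 and 13.23 in WT and 14.33, 14.09, 14.13 and 14.47 in Lck-/- extracts and rose by 0.77 (SE 0.15, limma adjusted p = 0.00626), again without overlap. The polysomal level differed by 0.22 (SE 0.16) with overlapping groups (adjusted p = 0.371 in limma), and the mean level rose by 0.49 (adjusted p = 0.0273 in limma). The ratio call was lost with WT replicates 1 and 2 crossed (limma adjusted p = 0.522), without them (0.171), on slide 1 alone (0.119) and on slide 2 alone (0.505), while the sub-polysomal call was lost on slide 2 alone among these (0.243). The mean-level call was lost without WT replicates 1 and 2 (limma adjusted p = 0.0574) and on slide 2 alone (0.161).

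Lsm11 went the other way. Its sub-polysomal log2 level was 7.82, 7.92, 8.15 and 8.02 in WT and 7.21, 7.66, 7.29 and 6.78 in Lck-/- extracts, without overlap, and fell by 0.74 (SE 0.18, limma adjusted p = 0.017). Its mean level fell by 0.60 (adjusted p = 0.0242 in limma), a call lost without WT replicates 1 and 2 (0.0607) and on slide 1 alone (0.0737). It was a dim probe, above background in both channels on 7 of 8 WT and 6 of 8 Lck-/- arrays. Lsm10, its partner in U7 snRNP, differed by -0.32 (SE 0.16) in the mean level (adjusted p = 0.176 in limma).

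Lsm14a, a protein of P bodies that represses translation, had a polysomal log2 level of 11.98, 11.74, 11.12 and 11.69 in WT and 12.15, 12.62, 12.28 and 13.08 in Lck-/- extracts. The groups did not overlap, and Lck-/- replicate 4 was highest. It rose by 0.90 there (SE 0.24, limma adjusted p = 0.0275), and its mean level rose by 0.77 (adjusted p = 0.0269 in limma). Both calls were kept with WT replicates 1 and 2 crossed (limma adjusted p = 0.047 and 0.0277) and lost without them (0.0713 and 0.0525) and on slide 1 alone (0.193 and 0.0651). Lsm2, a subunit of both Lsm rings, was at 14.30, 14.16, 13.99 and 14.04 in WT and 14.33, 14.57, 14.72 and 14.70 in Lck-/- extracts in the sub-polysomal level. It rose by 0.46 (SE 0.14, limma adjusted p = 0.0385), with adjusted p = 0.21 in limma when the arrays were crossed and 0.0672 without these extracts. Lsm7 had a ratio of -0.06 ± 0.35 (SD, n = 4) in WT and -0.10 ± 0.17 (n = 4) in Lck-/- extracts. The ratios of Lsm3 and Lsm5 differed by -0.06 (SE 0.36) and 0.13 (SE 0.21).

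The Sf3 genes encode the parts of U2 snRNP that hold the branch point. None of the 7 tested was called in the ratio (unadjusted, 1 was lower at p below 0.05, Sf3b5), and the median of their gene differences was 0.04. The group median ratio was 0.21 in WT and -0.10 in Lck-/-. By extract it was 0.20, 0.26, 0.14 and 0.12 in WT and 0.29, -0.21, -0.02 and -0.29 in Lck-/-. These extract medians overlapped, and their means differed by -0.24. Sf3b3, a large scaffold subunit, was at 14.18, 14.21, 13.76 and 14.04 in WT and 14.43, 14.54, 14.39 and 14.62 in Lck-/- extracts in the sub-polysomal level, without overlap. It rose by 0.45 (SE 0.14, limma adjusted p = 0.0432) and by 0.46 in the mean level (adjusted p = 0.0448 in limma). Sf3b5, a small subunit, was at 14.09, 14.09, 13.83 and 14.15 in WT and 14.50, 14.64, 14.38 and 14.42 in Lck-/- extracts in the same fraction, without overlap, and rose by 0.45 (SE 0.13, limma adjusted p = 0.033). Its polysomal level was 14.41 ± 0.06 (SD, n = 4) and 14.38 ± 0.31 (n = 4), and its ratio difference was -0.47 (SE 0.17). Neither sub-polysomal call was kept with WT replicates 1 and 2 crossed (limma adjusted p = 0.204 and 0.0965) or without them (0.0529 and 0.0934), and the mean-level call of Sf3b3 was lost in both cases (0.0534 and 0.0616).

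Sf3b4 had the largest level difference of the Sf3 genes, -0.97 (SE 0.40) in the mean level, but the Lck-/- extracts were spread widely at 12.18, 12.16, 10.84 and 10.42, and it was not called (adjusted p = 0.107 in limma). Its second probe differed by -0.02. Sf3b1, the subunit at the branch point, was dim in the sub-polysomal channel. Its polysomal log2 level was 7.80 ± 0.11 (SD, n = 4) in WT and 7.90 ± 0.38 (n = 4) in Lck-/- extracts. Sf3b2 kept a high ratio, 0.89 ± 0.07 (SD, n = 4) and 0.92 ± 0.16 (n = 4).

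The Prpf genes encode proteins of the U4/U6.U5 tri-snRNP and of the steps that follow. None of the 13 was called in the ratio, where their median difference was 0.02. Prpf3, of the U4/U6 snRNP, had a mean log2 level of 11.27, 11.38, 11.52 and 11.24 in WT and 11.71, 11.78, 11.76 and 11.84 in Lck-/- extracts. The groups were apart, and it rose by 0.42 (SE 0.12, limma adjusted p = 0.027). The call was lost without WT replicates 1 and 2 (limma adjusted p = 0.154) and on slide 2 alone (0.06). Prpf8, the core protein of the catalytic centre, differed by 0.12 (SE 0.16) in the mean level (adjusted p = 0.617 in limma). Its ratio was 0.31 ± 0.05 (SD, n = 4) and 0.34 ± 0.24 (n = 4). Prpf18, a factor of the second splicing step, had ratios of 0.71, 0.79, 0.79 and 0.61 in WT and 0.22, 0.46, 0.37 and 0.35 in Lck-/- extracts, without overlap. That difference of -0.37 (SE 0.11) did not pass (limma adjusted p = 0.0971). Prpf19 differed by -0.41 (SE 0.16) in the ratio, with overlapping groups, and Prpf39 and Prpf6 by 0.00 (SE 0.14) and -0.05 (SE 0.16).

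The SR protein genes had the highest median of gene differences in the ratio, 0.13, with 9 of 11 above 0 (44.3% of all genes were), and none was called (unadjusted, 1 was higher at p below 0.05, Srsf3). The sign of this median holds relative to the typical mRNA: it was -0.84 without centring, beside -0.78 over all genes, and -0.02 on slide 1 alone. The median ratio over these genes overlapped between the genotypes, with 0.15, -0.08, 0.26 and 0.25 in the WT extracts and 0.10, 0.31, 0.22 and 0.01 in the Lck-/- extracts. The means of these extract medians differed by 0.01, beside 0.04 for the hnRNP genes. Srsf3, which also acts in mRNA export, was at 14.04, 13.74, 13.90 and 14.15 in WT and 14.33, 14.94, 14.46 and 14.45 in Lck-/- extracts in the polysomal log2 level. Every Lck-/- extract was above every WT extract, and it rose by 0.58 (SE 0.17, limma adjusted p = 0.0429). Its ratio was 1.66, 1.65, 2.04 and 1.56 in WT and 1.75, 2.48, 2.18 and 2.19 in Lck-/- extracts, a difference of 0.43 (SE 0.17) (adjusted p = 0.196 in limma). The call rests on the brightest of 3 probes, since the others ranged down to a polysomal difference of -0.24, and it was lost with WT replicates 1 and 2 crossed (limma adjusted p = 0.0816) and without them (0.232).

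Srsf1, the founding SR protein, differed by 0.25 (SE 0.14) in the mean level and by 0.06 (SE 0.14) in the ratio. Its other 2 probes differed by -0.26 and -0.25 in the ratio, and both passed in the sub-polysomal level when each probe was fitted by itself (0.52 and 0.56, limma adjusted p = 0.0191 and 0.0217). With probes averaged, Srsf1 was called higher in the mean and sub-polysomal levels. Srsf2 had ratios of 0.17, 0.22, 0.39 and 0.41 in WT and 0.51, 0.57, 0.51 and 0.49 in Lck-/- extracts. Those groups were apart, but the difference of 0.22 (SE 0.11) did not pass (limma adjusted p = 0.287). Srsf7 had a ratio of -0.35 ± 0.22 (SD, n = 4) in WT and -0.22 ± 0.12 (n = 4) in Lck-/- extracts. Pnisr, an SR-related protein, stayed low at -0.89 ± 0.30 and -0.61 ± 0.24.

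**Figure D4:**
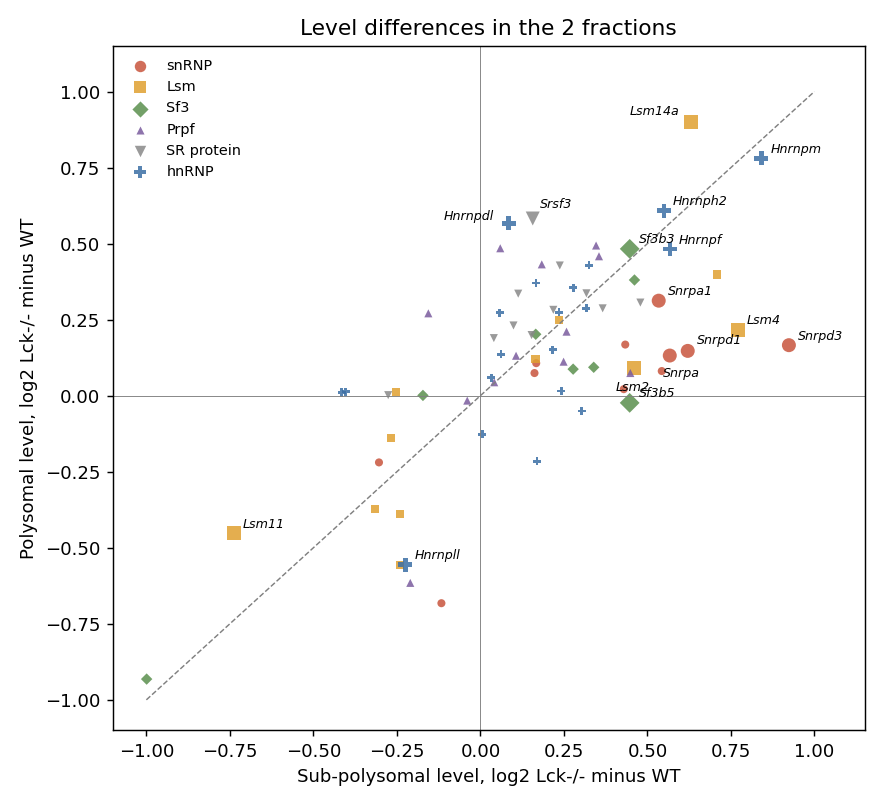
Difference in the polysomal level (vertical axis) against the difference in the sub-polysomal level (horizontal axis), both log2 Lck-/- minus WT, for 74 genes; large named symbols are the genes called in either fraction, and the dashed line marks equal differences. The 4 called snRNP genes and Lsm4 lie right of the line, Srsf3 and Hnrnpdl above it, and Hnrnpm close to it.

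Among the hnRNP genes Hnrnpm, a splicing regulator bound to nascent transcripts, had the lowest adjusted p of all level calls among the members. Its probe lies at chr17:33783252-33783311 (mm9, per the files). The mean log2 level was 13.49, 13.54, 13.01 and 13.44 in WT and 14.10, 14.35, 14.01 and 14.27 in Lck-/- extracts. All Lck-/- values were above all WT values, and it rose by 0.81 (SE 0.15, limma adjusted p = 0.0053), which is 1.75-fold. It rose by 0.84 in the sub-polysomal (SE 0.17, limma adjusted p = 0.0071) and by 0.78 in the polysomal level (SE 0.18, limma adjusted p = 0.0182). The ratio difference was -0.06 (SE 0.18). The mean-level call was kept with WT replicates 1 and 2 crossed, without them and on each slide alone. The polysomal call was lost with these arrays crossed (limma adjusted p = 0.0665), without these extracts (0.0581) and on slide 1 alone (0.341), and the sub-polysomal call on slide 2 alone (0.206).

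Hnrnpf and Hnrnph2, relatives that bind G-rich RNA, also rose. The mean log2 level of Hnrnpf was 14.34, 14.68, 14.13 and 14.76 in WT and 14.95, 15.27, 14.79 and 15.01 in Lck-/- extracts. The groups did not overlap, though by a small margin, and it rose by 0.53 (SE 0.17, limma adjusted p = 0.0451) and, in the sub-polysomal level, by 0.57 (adjusted p = 0.0374 in limma). The mean-level call was lost without WT replicates 1 and 2 (limma adjusted p = 0.13) and on slide 2 alone (0.121), and the sub-polysomal call with the arrays crossed (0.135) and without these extracts (0.0738). Hnrnph2 was at 10.34, 10.26, 9.63 and 9.78 in WT and 10.50, 10.64, 10.50 and 10.69 in Lck-/- extracts and rose by 0.58 (SE 0.17, limma adjusted p = 0.0334). In the sub-polysomal level it rose by 0.55 (adjusted p = 0.048 in limma), a call lost with the arrays crossed (0.186), and the mean-level call was lost on slide 2 alone (0.0756).

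Hnrnpll and Hnrnpdl were called in the polysomal level alone, in opposite directions. The polysomal log2 level of Hnrnpll, the regulator of CD45 splicing in T cells, was 11.11, 11.23, 11.42 and 11.17 in WT and 10.60, 10.87, 10.79 and 10.44 in Lck-/- extracts. Every Lck-/- extract was below every WT extract, and it fell by 0.56 (SE 0.15, limma adjusted p = 0.0337). Its sub-polysomal level differed by -0.22 (SE 0.15) (adjusted p = 0.283 in limma). For Hnrnpdl the polysomal log2 level was 14.35, 14.46, 14.03 and 13.93 in WT and 14.68, 14.94, 14.81 and 14.61 in Lck-/- extracts. Those groups were apart as well, and it rose by 0.57 (SE 0.17, limma adjusted p = 0.0403). Its ratio was 0.01, 0.05, -0.02 and -0.20 in WT and 0.31, 0.23, 0.65 and 0.57 in Lck-/- extracts, a difference of 0.48 (SE 0.13) (limma adjusted p = 0.0736). Crossing WT replicates 1 and 2 ended both polysomal calls (limma adjusted p = 0.0681 for Hnrnpll and 0.0894 for Hnrnpdl), as did leaving them out (0.135 and 0.0706). A dimmer second probe of Hnrnpdl, fitted by itself, was higher by 0.39 in the polysomal and 0.36 in the sub-polysomal level. Its ratio moved by 0.02, so the 0.48 rests on the brightest probe. None of these passed (limma adjusted p = 0.132, 0.0752 and 0.922). With both probes averaged, Hnrnpdl kept its polysomal call.

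The brightest probes of the abundant hnRNP proteins of the nucleus were not called. Hnrnpa1 had ratios of 0.42, 0.54, -0.11 and 0.00 in WT and 0.48, 0.58, 0.73 and 0.76 in Lck-/- extracts, with a difference of 0.43 (SE 0.16) (limma adjusted p = 0.181), and its second probe differed by 0.91 in the ratio. With both probes averaged, Hnrnpa1 was called higher in the ratio. Hnrnpa2b1, its close relative, differed by 0.20 (SE 0.12). Hnrnpk, which binds C-rich RNA, had ratios of 0.56, 0.46, 0.32 and 0.47 in WT and 0.28, 0.13, -0.18 and 0.04 in Lck-/- extracts, apart but not called (difference -0.38 (SE 0.13), limma adjusted p = 0.135). When each probe was fitted by itself, another Hnrnpk probe passed as lower in the polysomal level (-0.82, limma adjusted p = 0.0128) and the mean level (-0.63, 0.0268). Hnrnpu, a scaffold protein of the nucleus, had a ratio near the typical mRNA in both genotypes, 0.09 ± 0.11 (SD, n = 4) and 0.03 ± 0.08 (n = 4). Hnrnpa3 had a ratio of 1.23 ± 0.08 (SD, n = 4) and 1.20 ± 0.06 (n = 4). Over its 7 probes the WT ratio ranged from 0.17 to 2.00, so this value rests on the brightest probe.

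Other splicing genes were counted by list. Of 92 genes in 7 lists, 2 were higher and 1 lower of 86 tested in the ratio (2.81% and 1.03% of all genes), and 12 and 7 of 88 in the mean level (10.2% and 11.2%). In the polysomal level 9 were higher and 6 lower of 90 (5.98% and 9.21% of all genes), and in the sub-polysomal level 11 and 5 of 90 (9.47% and 10.8%). Among U snRNP and U2AF proteins, Sart1, a tri-snRNP protein, rose in the ratio by 1.25 (limma adjusted p = 0.00779) from -1.85, -2.04, -2.35 and -1.56 in WT to -1.12, -0.62, -0.72 and -0.37 in Lck-/- extracts, while Usp39, another tri-snRNP protein, fell by 0.53 (limma adjusted p = 0.0482). Eftud2, the GTPase of U5 snRNP, fell by 0.75 in the mean level, and Snrnp70, the U1 70K protein, rose by 0.60. Of 11 genes for snRNP assembly, 2 were higher and 0 lower in each fraction. In the sub-polysomal level Smn1, the core of the SMN complex, rose by 0.69 (limma adjusted p = 0.00796) and Wdr77, of the methylosome that modifies Sm proteins, by 0.72 (limma adjusted p = 0.0215). Of 10 helicases, Ddx23 and Ddx5 rose in both fractions and none fell in either, while in the mean level 3 were higher and 1 lower. Of 12 tested genes of the Prp19 complex, Cdc5l and Bcas2 rose and Snw1 fell in the sub-polysomal level, and Snw1 fell in the polysomal level too. Of 7 exon junction complex genes, 1, Casc3, rose in the ratio by 0.55 (limma adjusted p = 0.0269). Of 11 SR kinases and SR-related genes, Clk1, a kinase of SR proteins, fell in both fractions and Tra2a rose in the polysomal level. Of 23 other regulators, Tardbp rose in both fractions, Sfpq and Mbnl1 in the sub-polysomal level, and Mbnl2 fell in the polysomal level. Sf3b6, the branch-point subunit that the array lists under another name, fell in the ratio by 0.74 (limma adjusted p = 0.0492) and rose in the sub-polysomal level by 0.63 (limma adjusted p = 0.00823). With the arrays of WT replicates 1 and 2 crossed, 0 of the 8263 genes tested were called lower in the ratio. The ratio falls of Usp39 and Sf3b6 were therefore lost. The other calls in this paragraph were not followed with these arrays crossed or left out.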

How the data were processed

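RNA of 8 extracts (4 WT, 4 Lck-/-), labelled as biological replicates, was hybridised as polysomal against sub-polysomal RNA on 16 arrays over 2 slides. Spot intensity values, and flags for spots above background or saturated, were deposited by the authors as made by Agilent Feature Extraction 10.7.3.1, per the file headers, with probe positions on mm9. A table of log2 ratios was also deposited by the authors, and the submitters' processing notes name limma; its normalization is not given in the sources used here, and it served as an alternative.

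Intensities were corrected with normexp (offset 50), normalised by loess within arrays and Aquantile between them in limma 3.58.1 (R 4.3.3), with control and outlier spots given no weight. Dye swaps were averaged per extract. Loess centres each array: without it the median ratio over all genes was 1.34 in WT and 0.52 in Lck-/- extracts, a difference of -0.82, so ratio differences are relative to that shift. A gene was tested when its brightest probe passed the background flag on 6 or more of the 8 arrays, in both genotypes for the ratio and in 1 or both for levels. limma's moderated test was adjusted (Benjamini-Hochberg) over all genes tested, and was tested on simulated data. Alternatives covered background, normalization, filter, probe choice, dye, slide, crossed or left-out arrays and a replicate block.

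The genes and lists were chosen with earlier results of these data known. Genes named are the 10 largest called rises and falls of each comparison, the 5 highest and 5 lowest WT ratios, the brightest gene of each group, the Sm ring and a list of well-known members. Lsm10, Sf3b2, Snrpc, Snrpb2 and Prpf18 were added after their values were seen. The values of 1 tested gene are not reported here, though it is included in the counts.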

Additional observations from a re-analysis of the deposited data

Results flagged for a closer look

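In 6 of 138 groups of 4 extracts, 1 extract lay farther from the others than Dixon's critical value allows; chance gives about 1 in 20. In Lck-/- replicate 1, the ratio of Lsm3 was -0.22 in log2, and the nearest of the other extracts of its genotype was at -1.38. In Lck-/- replicate 2, the ratio of Snrpd3 was 1.52 in log2, and the nearest of the other extracts of its genotype was at 0.72. In Lck-/- replicate 2, the median mean level of both fractions over hnRNP genes was 13.52 in log2, and the nearest of the other extracts of its genotype was at 12.83. In WT replicate 3, the median mean level of both fractions over snRNP genes was 13.03 in log2, and the nearest of the other extracts of its genotype was at 12.96. In Lck-/- replicate 1, the median polysomal level over Prpf genes was 9.86 in log2, and the nearest of the other extracts of its genotype was at 10.59. In WT replicate 2, the median sub-polysomal level over Sf3 genes was 12.57 in log2, and the nearest of the other extracts of its genotype was at 12.35.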

How the results depend on the processing

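Values below are log2 medians over a group's genes, or counts of genes called in limma at an adjusted p below 0.05, in either direction. Only values that moved past the replicate spread, or counts that moved by over 1.5 times, are printed. The median ratio difference over all genes tested was -1.15 in the authors' deposited ratios and -0.78 both with median centring, which also counts dim spots, and with no normalization, and group medians there are to be read against it. Of all genes, 90% were called lower in the ratio in the deposited ratios, 56.3% with median centring and 71.9% with no normalization. The members' counts there are to be read against these shares. With median centring, 25.3% of all genes were above and 6.26% below 0 in Lck-/- extracts. Replicate numbers are shared between the genotypes by label alone, since same-numbered extracts did not deviate together (correlations of 0.06, -0.17, 0.26 and -0.24). With 16 arrays fitted with slide and dye terms, the members called came to 10 in the polysomal level (7.84% of all genes were higher and 10.1% lower), 0 in the ratio (2.65% and 1.86%). With Agilent processed signals, the median ratio difference was -0.25 (Lsm), -0.058 (all members), -0.030 (hnRNP) and the median ratio in Lck-/- was -0.34 (Lsm), 0.18 (snRNP) and the median ratio in WT was 0.30 (Sf3), 0.35 (all members), 0.53 (hnRNP) and the median sub-polysomal level difference was 0.10 (Lsm). With WT replicates 1 and 2 left out, the members called came to 4 in the mean of both fractions, 0 in the polysomal level, 0 in the ratio, 35 in the ratio against 0 in WT, 8 in the sub-polysomal level and the median ratio difference was 0.15 (Lsm), -0.013 (hnRNP) and the median sub-polysomal level difference was -0.14 (Lsm), 0.58 (snRNP). With the authors' deposited ratios, the members called came to 69 in the ratio and the median ratio difference was -1.31 (Lsm), -1.15 (Prpf), -1.18 (SR protein), -1.44 (Sf3), -1.30 (all members), -1.29 (hnRNP), -1.68 (snRNP) and the median ratio in Lck-/- was 0.13 (Lsm), 0.87 (Prpf), 0.67 (SR protein), 0.27 (Sf3), 0.68 (all members), 1.02 (hnRNP), 0.58 (snRNP) and the median ratio in WT was 1.43 (Lsm), 1.87 (Prpf), 2.11 (SR protein), 2.01 (Sf3), 2.06 (all members), 2.16 (hnRNP), 2.22 (snRNP). With the authors' deposited ratios with columns centred, the members called came to 9 in the ratio (5.38% of all genes were higher and 3.5% lower) and the median ratio difference was -0.26 (Sf3), -0.12 (all members), -0.11 (hnRNP) and the median ratio in Lck-/- was -0.46 (Lsm), 0.084 (all members), -0.016 (snRNP) and the median ratio in WT was 0.095 (Prpf). With the arrays of WT replicates 1 and 2 crossed, the members called came to 1 in the polysomal level, 0 in the ratio, 4 in the sub-polysomal level. With filter on all 8 arrays, the median ratio in Lck-/- was -0.42 (Lsm) and the median sub-polysomal level difference was 0.16 (Lsm). With mean over probes, the members called came to 2 in the ratio (2.67% of all genes were higher and 1.1% lower) and the median mean of both fractions difference was 0.21 (snRNP) and the median ratio in Lck-/- was 0.16 (all members), 0.24 (snRNP) and the median ratio in WT was -0.047 (SR protein), 0.42 (hnRNP). With median centring, the members called came to 55 in the ratio, 31 in the ratio against 0 in Lck-/- and the median ratio difference was -1.01 (Lsm), -0.77 (Prpf), -0.83 (SR protein), -1.07 (Sf3), -0.94 (all members), -0.92 (hnRNP), -1.33 (snRNP) and the median ratio in Lck-/- was -0.19 (Lsm), 0.33 (SR protein), 0.36 (all members), 0.70 (hnRNP), 0.25 (snRNP) and the median ratio in WT was 0.73 (Lsm), 1.10 (Prpf), 1.39 (SR protein), 1.32 (Sf3), 1.38 (all members), 1.44 (hnRNP), 1.55 (snRNP). With no filter, the members called came to 6 in the mean of both fractions (3.31% of all genes were higher and 4.75% lower), 3 in the polysomal level (1.89% and 3.49%), 0 in the ratio (0.73% and 0.179%). With no normalization, the members called came to 65 in the ratio and the median ratio difference was -1.02 (Lsm), -0.78 (Prpf), -0.84 (SR protein), -1.07 (Sf3), -0.95 (all members), -0.92 (hnRNP), -1.34 (snRNP) and the median ratio in Lck-/- was 0.091 (Lsm), 0.80 (Prpf), 0.61 (SR protein), 0.20 (Sf3), 0.64 (all members), 0.98 (hnRNP), 0.53 (snRNP) and the median ratio in WT was 1.01 (Lsm), 1.39 (Prpf), 1.68 (SR protein), 1.61 (Sf3), 1.66 (all members), 1.73 (hnRNP), 1.83 (snRNP). With arrays with polysomal RNA in Cy3, the members called came to 2 in the mean of both fractions (4.13% of all genes were higher and 6.3% lower), 0 in the polysomal level (1.02% and 2.25%), 0 in the ratio (0.353% and 0%), 0 in the sub-polysomal level (1.74% and 3.35%) and the median mean of both fractions difference was 0.20 (snRNP) and the median ratio in Lck-/- was 0.23 (snRNP) and the median ratio in WT was 0.30 (Sf3) and the median sub-polysomal level difference was 0.064 (Lsm). With arrays with polysomal RNA in Cy5, the members called came to 1 in the mean of both fractions (4.14% of all genes were higher and 6.87% lower), 0 in the polysomal level (0.243% and 1.12%), 0 in the ratio (0.436% and 0%), 27 in the ratio against 0 in Lck-/- (14% and 13.7%), 33 in the ratio against 0 in WT (21.2% and 15.3%), 3 in the sub-polysomal level (3.13% and 4.66%) and the median ratio difference was -0.065 (all members), -0.023 (hnRNP) and the median ratio in Lck-/- was -0.25 (Lsm), 0.14 (all members) and the median ratio in WT was 0.12 (Sf3). With quantile normalization of channels, the members called came to 7 in the mean of both fractions (9.4% of all genes were higher and 11.3% lower), 20 in the sub-polysomal level (12% and 8.93%) and the median sub-polysomal level difference was 0.11 (Lsm). With the replicate number as a block, the members called came to 7 in the mean of both fractions (7.64% of all genes were higher and 9.45% lower), 0 in the ratio (2.15% and 0.0605%), 4 in the sub-polysomal level (4.59% and 7.34%). With slide 1 only, the members called came to 7 in the mean of both fractions, 0 in the polysomal level, 0 in the ratio, 30 in the ratio against 0 in Lck-/- and the median polysomal level difference was -0.057 (snRNP) and the median ratio difference was -0.024 (SR protein), -0.30 (Sf3), -0.19 (all members), -0.28 (hnRNP) and the median ratio in Lck-/- was -0.33 (Lsm) and the median ratio in WT was 0.41 (Prpf), 0.40 (SR protein), 0.56 (Sf3), 0.40 (all members), 0.56 (hnRNP) and the median sub-polysomal level difference was 0.58 (snRNP). With slide 2 only, the members called came to 4 in the mean of both fractions, 15 in the polysomal level, 0 in the ratio, 0 in the sub-polysomal level and the median mean of both fractions difference was 0.19 (snRNP) and the median ratio difference was 0.33 (SR protein), 0.15 (all members), 0.32 (hnRNP), -0.14 (snRNP) and the median ratio in Lck-/- was -0.38 (Lsm) and the median ratio in WT was 0.12 (Prpf), -0.14 (SR protein), -0.25 (Sf3), 0.064 (all members), 0.14 (snRNP) and the median sub-polysomal level difference was 0.087 (Lsm), 0.29 (snRNP). Where limma called 0 members, 1 to 12 were higher and 1 to 12 lower at an unadjusted p below 0.05. With the authors' deposited ratios, the sign turned for the Lsm3 ratio in WT (0.74), the Lsm5 ratio in WT (0.88), the Pnisr ratio in WT (0.52), the Prpf39 ratio in WT (0.27), the Sf3b4 ratio in WT (0.54). With median centring, the sign turned for the Lsm3 ratio in WT (0.064), the Lsm5 ratio in WT (0.20). With no normalization, the sign turned for the Lsm3 ratio in WT (0.35), the Lsm5 ratio in WT (0.49), the Pnisr ratio in Lck-/- (0.011), the Pnisr ratio in WT (0.18), the Prpf39 ratio in WT (0.039), the Sf3b4 ratio in WT (0.20). The cause of these moves was not tested. Leaving out 1 extract at a time gave 0.20 to 0.33 for the median mean of both fractions difference, snRNP, -0.22 to 0.023 for the median ratio difference, Lsm, -0.060 to 0.032 for the median ratio difference, all members, -0.048 to 0.063 for the median ratio difference, hnRNP, -0.40 to -0.33 for the median ratio in Lck-/-, Lsm, 0.14 to 0.21 for the median ratio in Lck-/-, all members, 0.095 to 0.20 for the median ratio in Lck-/-, snRNP, -0.082 to 0.18 for the median sub-polysomal level difference, Lsm, 1 to 11 for the members called in the mean of both fractions, 0 to 13 for the members called in the polysomal level, 0 to 3 for the members called in the ratio, 4 to 13 for the members called in the sub-polysomal level. The shares of all genes called moved too. Without Lck-/- replicate 1, 14.2% were higher and 11.6% lower in the mean level, and 13.2% and 11.2% in the polysomal level. Without Lck-/- replicate 4, they were 3.9% and 7.26%, and 1.59% and 5.27%. In the sub-polysomal level they were 9.73% and 10.4% without Lck-/- replicate 1, and 4.25% and 6.73% without Lck-/- replicate 3. In the ratio they were 3.46% and 1.91% without Lck-/- replicate 2. A trend in the prior variance moved none of the results in this section. The planned comparison of the ratio with protein length was not run, because protein sequences were not used here. Signal over background limits Lsm11 and Sf3b1, and leaves Srsf12 and Snrpn untested.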
